A study of Mus musculus with 6 samples.

Results

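The neurotrophins and the glial cell line-derived neurotrophic factor (GDNF) family are secreted survival factors of neurons. Transcripts of 9 genes of these families were examined in the ischemic mouse retina. They were the ligand genes Bdnf, Ntf3 and Gdnf and the receptor genes Ntrk2, Ntrk3, Ngfr, Gfra1, Gfra2 and Ret. The rule names the genes and uses no values, and each had a row among the 32285 genes of the count table. None of the 9 passed the threshold for a change with chronic intermittent hypoxia (CIH). The lowest p belonged to Ntrk2, the gene of the BDNF receptor TrkB, with 93.7 ± 12 CPM (counts of a gene per 1000000 counts of the scaled library) in OIR-CIH and 116 ± 7.96 CPM in OIR-Norm retinas (mean ± SD, n = 3 libraries per group).

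All pups were wild-type C57BL/6J mice with oxygen-induced retinopathy (OIR), a model in which high O2 removes the capillaries of the central retina. They breathed 75% O2 for 5 days from postnatal day (PN) 8 and returned to room air at PN13, and retinal RNA was sequenced at PN18. OIR-CIH pups then spent 10 h per day in cages whose O2 swung between 20.95% and 5%, in 266 cycles of 135 s, with the low level held for 30 s per cycle. OIR-Norm pups received the same gas flow with O2 held constant. Both groups had been through hyperoxia, so that the comparison addresses what CIH added to ischemic retinopathy, and no library of a retina without OIR enters it. Total counts ranged from 26289905 to 38010151 per library over the 3 OIR-CIH and 3 OIR-Norm libraries. Xist and Y-linked RNA were found together in all 6 libraries, although the authors' methods give 3 eyes per group. What n counts beyond libraries is therefore uncertain, and p-values measure the spread between these libraries, which may be in part technical. Marker genes of 13 retinal and adjoining cell types were detected, with none at 0 in every library. Summed lens markers were highest in OIR-Norm replicate 2, at 390 CPM. OIR-Norm replicates 1 and 3 had 22.6 and 16.2 CPM, within the 11.1 to 60.8 CPM of OIR-CIH.

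Neurotrophins are made as precursors that proteases cleave to the mature ligand. Mature brain-derived neurotrophic factor (BDNF) binds the tyrosine kinase receptor TrkB, neurotrophin 3 binds TrkC, the product of Ntrk3, and all neurotrophins and their precursors can bind the shared receptor p75, the product of Ngfr. GDNF binds the membrane-anchored co-receptor encoded by Gfra1, and the related ligand neurturin prefers the one encoded by Gfra2, after which both signal through the tyrosine kinase Ret. In the retina BDNF is best known as a survival factor of ganglion cells, whereas GDNF is known for its support of photoreceptors, in part by way of Müller glia.

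Transcription of these genes can start at several sites. RefSeq promoter windows on GRCm38.p6 were matched to 6 of the 9 genes, 14 windows in all, of which Bdnf held 7. Ntrk3, Gfra2 and Ret are named without a sequence. The 250 bases before a start site are shown for Ntrk2, the receptor gene with the lowest p, and for the pair of ligand genes with a shared motif, 5′ to 3′ on the + strand with the motif in capitals. The Ntrk2 window lies at chr13:58806319-58806568, the Bdnf window before start site 3 of 7 at chr2:109692186-109692435, and the Gdnf window before start site 1 of 2 at chr15:7809798-7810047. No annotated exon falls in these windows.
Ntrk2: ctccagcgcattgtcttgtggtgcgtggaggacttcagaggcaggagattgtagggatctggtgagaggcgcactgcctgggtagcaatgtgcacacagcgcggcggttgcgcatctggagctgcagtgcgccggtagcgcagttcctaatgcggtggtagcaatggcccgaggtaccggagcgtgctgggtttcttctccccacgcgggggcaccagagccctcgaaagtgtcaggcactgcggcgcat
Bdnf: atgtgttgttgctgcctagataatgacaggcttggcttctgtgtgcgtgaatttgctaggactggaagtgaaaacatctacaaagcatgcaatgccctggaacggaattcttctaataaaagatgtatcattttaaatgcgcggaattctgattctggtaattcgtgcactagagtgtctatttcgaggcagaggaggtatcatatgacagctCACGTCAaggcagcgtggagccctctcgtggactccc
Gdnf: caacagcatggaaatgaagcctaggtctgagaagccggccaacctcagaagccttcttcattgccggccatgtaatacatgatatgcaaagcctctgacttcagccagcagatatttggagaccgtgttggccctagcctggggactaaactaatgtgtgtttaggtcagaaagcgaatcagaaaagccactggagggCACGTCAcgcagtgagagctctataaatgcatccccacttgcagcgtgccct
The capitals mark CACGTCA, which reads CACGT, the reverse complement of the hypoxia response element core ACGTG, and overlaps CGTCA, the reverse complement of TGACG, a core of the cAMP response element. Both strands were searched. CACGTCA, a heptamer chosen after these windows had been seen, was present in 1.65% of 32851 windows of this length and in 2 of the 14 windows of the examined genes. The core ACGTG was present in 16.6% of windows and in 5 of the 14, TGACG in 17.8% and in 2, and the E-box CACGTG in 6.02% and in 1. The Ntrk2 window held none of the 4 motifs. The variant GCGTG of the hypoxia response element core was not searched for and occurs in each of the printed windows, that of Ntrk2 included. These matches describe letters in a window and say nothing of binding.

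Levels of different genes were compared per length, as CPM per kb of exon. Ngfr was highest with a mean of 10.5 CPM per kb over the 6 libraries (range 9.08 to 12.5), followed by Ret with 8.74 (7.47 to 9.83). Gfra1 lay at 7.13 (5.98 to 8.87), Gfra2 at 6.07 (5.23 to 7.01) and Ntrk2 at 5.43 (4.25 to 6.47) CPM per kb. Neighbours in the order of these 5 receptor genes overlapped. Ntrk3 stood below Ntrk2 without overlap, at 1.31 CPM per kb (1.15 to 1.45), and was followed by the ligand gene Bdnf at 1.22 (1.16 to 1.36), whose range overlapped with that of Ntrk3. Ntf3 reached 0.466 CPM per kb (0.389 to 0.568) and Gdnf 0.058 (0.0377 to 0.0936), each below its upper neighbour in every library. By their means, all 3 ligand genes were thus at the lower end and the receptor genes above them, though Ntrk3 was above Bdnf in only 4 of the 6 libraries. The order of the upper 5 depended on the length used. With the length of the longest coding transcript, a choice made after the data were seen, Ntrk2 came first at 12 CPM per kb, ahead of Ret at 10.8 and Ngfr at 10.5, while the order of the lower 4 was retained. The counts sum all transcripts of a gene, so that full-length TrkB and its kinase-lacking truncated forms are not told apart here.

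**Figure D1:**
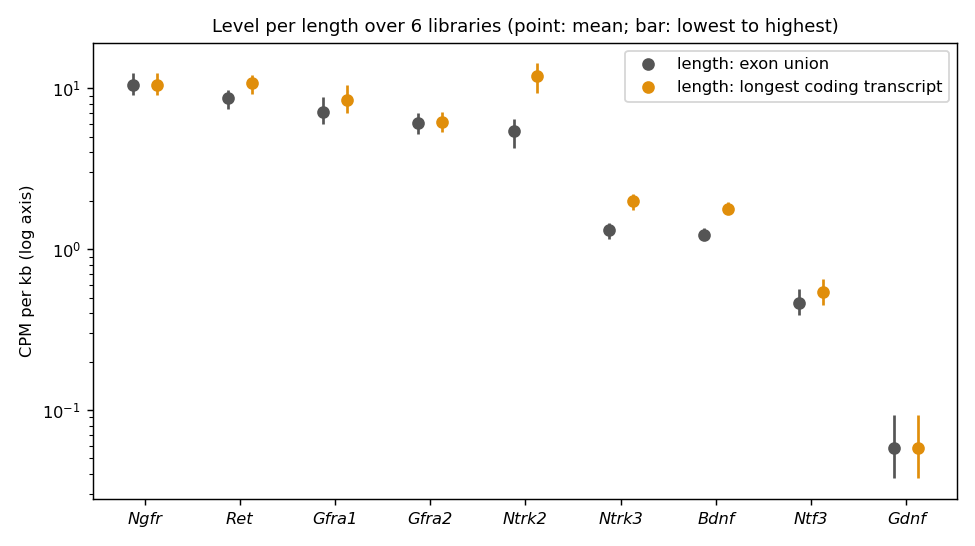
Level of the 9 genes in CPM per kb on a log axis, with points at the mean over the 6 libraries. Bars run from the lowest to the highest library. Lengths are those of the exons (grey) and of the longest coding transcript (orange), and genes are ordered by the mean with the exon length. By exon length, neighbours in the order among Ngfr, Ret, Gfra1, Gfra2 and Ntrk2 overlap, at means of 5.43 to 10.5. Ntrk3 and Bdnf lie at means of 1.31 and 1.22, and Ntf3 and Gdnf are lower in every library.

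CIH and normoxia were compared by edgeR's quasi-likelihood test on the 20021 genes whose counts summed to 10 or more, and a gene was called at a Benjamini-Hochberg adjusted p under 0.05 with an absolute log2 fold change over 0.5. All 9 genes passed the count minimum. Of all genes tested, 63 were called (0.315%), 42 with lower levels under CIH (0.21%) and 21 with higher levels (0.105%), and 0 of the 9 neurotrophin and GDNF genes were among them. Without a minimum fold change the share called was 0.39%, again with 0 of the 9. An unadjusted p under 0.05 was found for 1 of the 9, Ntrk2, beside 13.4% of all genes tested. The CPM of the groups did not overlap for the same 1 of 9, beside 18.4% of all genes tested, 9.26% with OIR-CIH lower and 9.12% with OIR-CIH higher. The median log2 fold change, OIR-CIH minus OIR-Norm, was -0.02, with 5 estimates below and 4 above 0, and the median absolute log2 fold change was 0.13 beside 0.15 over all genes tested. For 6 genes (Bdnf, Ntrk3, Ngfr, Gfra1, Gfra2 and Ret) the 95% interval of the log2 fold change lay inside ±0.5. That of Ntf3, Ntrk2 and Gdnf reached past it, so that these 3 intervals still hold changes of the size required for a call.

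**Figure D2:**
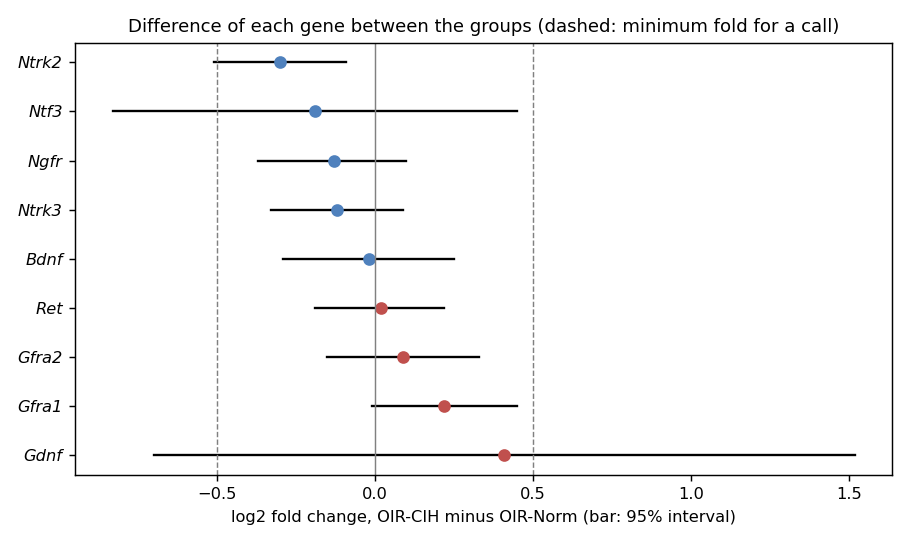
Log2 fold change of the 9 genes, OIR-CIH minus OIR-Norm, with 95% intervals from edgeR's quasi-likelihood fit and dashed lines at ±0.5. The interval of Ntrk2 (-0.51 to -0.09) alone lies apart from 0, and those of Ntf3 and Gdnf are the widest.

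Among the 3 ligand genes examined, Bdnf (ENSMUSG00000048482, chr2:109674700-109727007, + strand, GRCm38) was the most abundant. Its level was 7.18, 7.28 and 8.12 CPM in OIR-CIH replicates 1 to 3 and 7.34, 8.45 and 7.26 CPM in OIR-Norm replicates 1 to 3. The groups overlapped throughout, with the highest value in OIR-Norm replicate 2 and the lowest in OIR-CIH replicate 1. The means were 7.53 ± 0.518 and 7.68 ± 0.67 CPM (n = 3 each), a log2 fold change of -0.02 (SE 0.12, 95% interval -0.29 to 0.25, edgeR quasi-likelihood adjusted p = 0.955). The sign of this estimate changed when single libraries were left out (-0.09 to 0.05). The antisense gene Gm45346 shares 896 bp, or 14.4%, of the Bdnf exons and had 0 to 3 counts per library, against 183 to 307 for Bdnf. As whole retinas were sequenced, fewer cells of a type and less RNA per cell cannot be told apart for this or any gene below.

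Ntf3 (ENSMUSG00000049107, chr6:126101412-126166910, - strand), encoding neurotrophin 3, had 0.667, 0.797 and 0.767 CPM in OIR-CIH and 0.714, 0.877 and 0.974 CPM in OIR-Norm. OIR-Norm replicates 2 and 3 lay above all OIR-CIH libraries, but OIR-Norm replicate 1 lay among them. With 17 to 31 counts per library the log2 fold change of -0.19 had an interval of -0.83 to 0.45 (edgeR adjusted p = 0.813). Gdnf (ENSMUSG00000022144, chr15:7810846-7837575, + strand) was close to the limit of detection, with 6, 4 and 13 counts in OIR-CIH and 5, 6 and 6 in OIR-Norm. These correspond to 0.235, 0.139 and 0.344 CPM against 0.162, 0.21 and 0.188 CPM. OIR-CIH held both the lowest and the highest library. The log2 fold change of 0.41 had an interval of -0.70 to 1.52 (edgeR adjusted p = 0.766) and rested on OIR-CIH replicate 3, without which it was -0.02. No difference in Gdnf was detected at this depth, and its interval held changes past the fold required for a call in both directions.

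Of the receptor genes, Ntrk2 (ENSMUSG00000055254, chr13:58806569-59133970, + strand) was the most deeply counted, with 2091 to 4010 counts per library. It stood at 82.1, 93.1 and 106 CPM in OIR-CIH and at 113, 125 and 110 CPM in OIR-Norm. Every OIR-CIH library lay below every OIR-Norm library, though OIR-CIH replicate 3 and OIR-Norm replicate 3 were separated by less than the spread within either group. The log2 fold change was -0.30 (SE 0.10, 95% interval -0.51 to -0.09), a ratio of 0.81 (0.701 to 0.936). By edgeR's quasi-likelihood test the unadjusted p was 0.00805, rank 636 of all genes tested, and the adjusted p was 0.253, which is not a call. An exact permutation test of the CPM gave p = 0.1 (two-sided), the smallest that 3 against 3 libraries allow. The estimate ranged from -0.41 without OIR-CIH replicate 3 to -0.22 without OIR-CIH replicate 1, with adjusted p of 0.178 to 0.567, and was -0.31 or -0.30 under all 8 other alternatives to the test.

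TrkB is made by ganglion cells and other retinal neurons and, in its truncated form, by glia, so the markers of these cells are given beside Ntrk2. Summed ganglion cell markers overlapped, at 1054 to 1309 CPM in OIR-CIH and 1159 to 1261 CPM in OIR-Norm, and so did those of amacrine cells (526 to 660 and 491 to 530 CPM) and of Müller glia (3408 to 4120 and 3417 to 3712 CPM). The summed astrocyte markers did not overlap, at 132 to 140 CPM in OIR-CIH and 194 to 242 CPM in OIR-Norm, with 4 of 5 markers lower. Gfap, the intermediate filament gene of astrocytes and reactive Müller glia, had 63.8 ± 3.19 CPM in OIR-CIH against 142 ± 20.1 CPM in OIR-Norm. It alone gave 61.5 to 67.5 CPM of the astrocyte sums in OIR-CIH and 119 to 158 CPM in OIR-Norm. No astrocyte sum without Gfap was computed, so these sums do not measure astrocyte content apart from Gfap. Gfap was the only marker that edgeR called in any of the 13 lists, with a log2 fold change of -1.15 and an edgeR adjusted p of 0.000187. The authors, who used DESeq, list the rod marker Nr2e3 among their changed genes, and it was not called here. Summed microglia markers, those of the resident immune cells, were also apart, by a narrow gap, at 60.2 to 71.6 CPM and 72.2 to 85.5 CPM, with 6 of 7 lower. Among single genes tested, 9.26% did not overlap with OIR-CIH lower, and no such share was computed for sums of markers. Endothelial (208 to 238 and 207 to 267 CPM) and pericyte markers (81.8 to 129 and 93.2 to 218 CPM) overlapped in their sums, with all 7 endothelial estimates (median -0.34) and all 6 pericyte estimates (median -0.45) below 0. All 6 rod estimates (median 0.13) and 4 of 6 pigment epithelium estimates (median 0.58) were above 0, with overlapping sums. The most abundant of these markers, other than Gfap, were not called, with 356 ± 39.4 and 355 ± 24.5 CPM for the neurofilament gene Nefl, 188 ± 28.6 and 204 ± 14.5 for Nefm, 1910 ± 242 and 1723 ± 109 for the glutamine synthetase gene Glul and 792 ± 98.2 and 806 ± 32.5 for Dkk3, in OIR-CIH and OIR-Norm. Pdgfra, a receptor gene of astrocytes, had 30.5 ± 2.66 and 42 ± 8.73 CPM (edgeR adjusted p = 0.206), and the endothelial genes Kdr and Pecam1 had 172 ± 7.03 and 172 ± 2.6, and 10.8 ± 1.57 and 15 ± 8.38 CPM. The part of glial content in the Ntrk2 difference was not tested.

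Ntrk3 (ENSMUSG00000059146, chr7:78175959-78738012, - strand), encoding the neurotrophin 3 receptor TrkC, had 34.6, 43.8 and 34.9 CPM in OIR-CIH and 40.6, 42.8 and 40 CPM in OIR-Norm. OIR-CIH replicates 1 and 3 were the lowest of the 6 libraries and OIR-CIH replicate 2 the highest. This gave a log2 fold change of -0.12 (95% interval -0.33 to 0.09, edgeR adjusted p = 0.628). Ngfr (ENSMUSG00000000120, chr11:95568818-95587735, - strand), encoding p75, which Müller glia are known to express, had 31.3, 32.9 and 38.9 CPM in OIR-CIH and 42.9, 36.1 and 34.4 CPM in OIR-Norm. The groups overlapped by OIR-CIH replicate 3 alone, which lay above OIR-Norm replicates 2 and 3. Its log2 fold change was -0.13 (95% interval -0.37 to 0.10, edgeR adjusted p = 0.623).

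Of the receptor genes of the GDNF family, Gfra1 kept an estimate above 0 with each library left out in turn, whereas Gfra2 and Ret did not. Gfra1 (ENSMUSG00000025089, chr19:58235604-58455909, - strand), the co-receptor gene of GDNF, had 39.1, 38.2 and 48.6 CPM in OIR-CIH and 38.5, 37.1 and 32.8 CPM in OIR-Norm. OIR-CIH replicate 3 was the highest and OIR-Norm replicate 3 the lowest, and the other 4 libraries lay within 37.1 to 39.1 CPM. The log2 fold change was 0.22 (SE 0.10, 95% interval -0.01 to 0.45, unadjusted p = 0.0575 and edgeR adjusted p = 0.387), and it ranged from 0.10 to 0.28 with single libraries left out. The antisense gene Gm16277, which shares 416 bp of its exons, had 0 counts in all libraries.

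Gfra2 (ENSMUSG00000022103, chr14:70890120-70979838, + strand), the co-receptor gene of neurturin, had 20.2, 21.3 and 24.8 CPM in OIR-CIH and 23, 20.9 and 18.5 CPM in OIR-Norm. The groups overlapped, again with OIR-CIH replicate 3 highest and OIR-Norm replicate 3 lowest. Their log2 fold change was 0.09 (95% interval -0.15 to 0.33, edgeR adjusted p = 0.755), and it was -0.01 without OIR-CIH replicate 3. Ret (ENSMUSG00000030110, chr6:118151745-118197718, - strand), the shared signalling receptor gene, had 50.5, 61.2 and 66.5 CPM in OIR-CIH, whereas OIR-Norm libraries were close together at 58.1, 59 and 59.4 CPM. OIR-CIH libraries thus lay on both sides of OIR-Norm. With means of 59.4 ± 8.13 and 58.8 ± 0.639 CPM, the log2 fold change was 0.02 (95% interval -0.19 to 0.22, edgeR adjusted p = 0.959), and it was -0.01 and -0.08 without OIR-CIH replicates 2 and 3.

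Within OIR-CIH the libraries kept a similar order across these genes. Replicate 3 was the highest of its group for 7 of the 9 genes and replicate 1 the lowest for 7. The same shares over all genes tested were not computed, so that this order is not shown to be particular to these genes. Replicate 3 was also the deepest library and replicate 1 the shallowest of the series, and the part of depth in this order was not tested. The plot of each library shows this order for Bdnf, Ntrk2, Ngfr, Gfra2 and Ret.

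**Figure D3:**
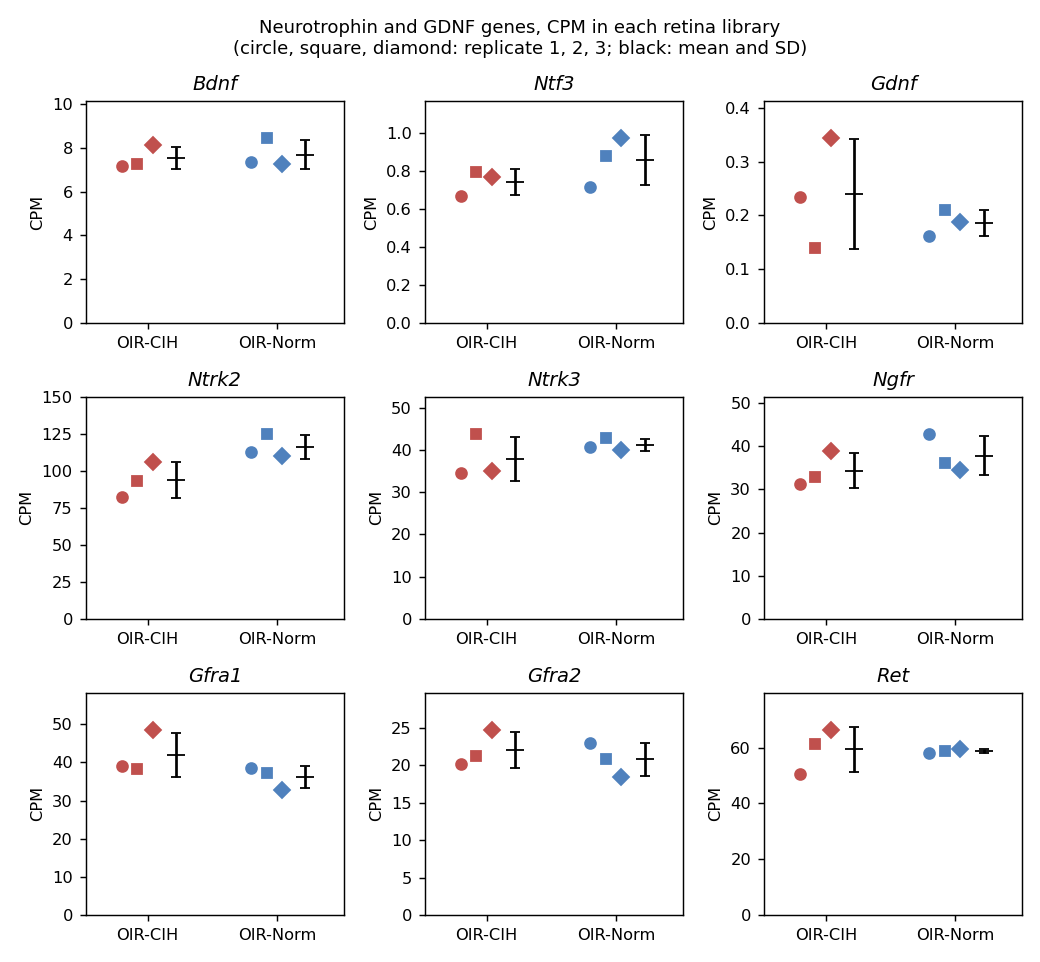
CPM of the 9 genes in each library, with panels for the ligand genes on top, the neurotrophin receptor genes in the middle and the GDNF receptor genes below. Circles, squares and diamonds are replicates 1, 2 and 3, black lines are mean and SD (n = 3), and Ntrk2 alone shows every OIR-CIH library (82.1 to 106) below every OIR-Norm library (110 to 125).

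Ratios of counts within a library do not depend on scaling between libraries. They were computed after the values had been seen, for the 7 genes with at least 100 counts in every library, and are given with no test. The ratio of Ntrk2 to Gfra1 was 2.1, 2.43 and 2.19 in OIR-CIH and 2.94, 3.37 and 3.35 in OIR-Norm. That of Ntrk2 to Ret was 1.62, 1.52 and 1.6 against 1.94, 2.12 and 1.85. In both, the OIR-CIH libraries were close together and below all OIR-Norm libraries. Ratios with Ntrk2 did not overlap between groups for 4 of the 6 other genes, beside 51% of 12246 genes with as many counts set against Ntrk2 (50.7% with OIR-CIH lower), so that this share is near its background.

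Ngfr to Gfra2 was 1.55, 1.54 and 1.57 in OIR-CIH and 1.86, 1.73 and 1.86 in OIR-Norm, and Ngfr to Gfra1 was 0.8, 0.861 and 0.802 against 1.12, 0.974 and 1.05. Neither pair of groups overlapped, although the CPM of each of these 3 genes did. The ratios of Ngfr with Bdnf, Ntrk2, Ntrk3 and Ret did overlap between groups. Over all pairs of the 7 genes, 8 of 21 ratios did not overlap. Of the 12246 genes set against Ngfr, 14.8% gave ratios whose groups did not overlap (13.9% with OIR-CIH lower).

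Other genes of these pathways were read from 7 lists of 96 genes, of which 92 were tested, and 0 were called. An unadjusted p under 0.05 was found for 5 with a higher and 4 with a lower estimate, and the median log2 fold change was -0.01, as over all genes tested. In the neurotrophin family list, which includes the sortilin sorting receptors, 6 of 8 estimates were above 0 with a median of 0.07. Sorcs1, a sortilin-type sorting receptor gene, had 50.8 ± 6.25 against 57.5 ± 1.18 CPM (edgeR adjusted p = 0.435).

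All 8 tested genes of the GDNF family list had estimates above 0, with a median of 0.30. This median was 0.11 to 0.12 with limma on log2(CPM + 0.5), with every counted gene or with a stricter count filter. It was 0.33 with limma-voom and 0.19 without OIR-Norm replicate 2. Nrtn, encoding the Gfra2 ligand neurturin, had 18.3, 17.1 and 19.2 CPM in OIR-CIH and 15.5, 8.56 and 14.5 CPM in OIR-Norm. Every OIR-CIH library was above every OIR-Norm library, beside 9.12% of all genes tested, and OIR-Norm replicate 2 was far below the others. The log2 fold change was 0.50 (95% interval 0.12 to 0.87, unadjusted p = 0.0132 and edgeR adjusted p = 0.281), and 0.28 without OIR-Norm replicate 2, the library with the most lens RNA. Gdf15, whose product binds a distant member of the co-receptor family, had 1.59 ± 0.37 and 1.04 ± 0.107 CPM (edgeR adjusted p = 0.384). Several members of this list were scarce, as Gfra3 with 2 to 9 counts per library.

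Genes of the proteases that cleave neurotrophin precursors had a median log2 fold change of 0.06, which was -0.05 without OIR-CIH replicate 3 and -0.03 without OIR-Norm replicate 1. Plat, encoding tissue plasminogen activator, had 26.2 ± 1.96 against 33.7 ± 7.88 CPM (log2 fold change -0.36, or -0.16 without OIR-Norm replicate 2, edgeR adjusted p = 0.308 over all libraries), and Pcsk5, a proprotein convertase gene, 14 ± 0.606 against 12.5 ± 1.37 CPM (edgeR adjusted p = 0.53). The list of Trk and Ret adaptors had 19 of 25 estimates below 0, with a median of -0.05. Its genes of lowest p were Shc1, an adaptor gene (21.2 ± 2.09 against 25.2 ± 3.46 CPM), and Cbl, encoding a ubiquitin ligase of receptor kinases (54.3 ± 5.91 against 62 ± 3.35 CPM), with edgeR adjusted p of 0.373 and 0.379. The log2 fold change of Shc1 was -0.25, and -0.13 without OIR-Norm replicate 2. Among the partners of p75, Rtn4r, the Nogo receptor gene, had 4.83 ± 0.421 against 3.7 ± 0.243 CPM (log2 fold change 0.39, edgeR adjusted p = 0.31), and Bex1 21 ± 0.748 against 18.5 ± 0.766 CPM (edgeR adjusted p = 0.383).

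The list of genes that respond to neurotrophins and to neuronal activity had a median of -0.24, with 12 of 15 estimates below 0. Without OIR-Norm replicate 1 the median was -0.04, and without OIR-Norm replicate 3 it was -0.43. Fos, an immediate-early transcription factor gene, had 32, 28.7 and 32 CPM in OIR-CIH and 48.8, 47.7 and 31.1 CPM in OIR-Norm. OIR-Norm replicate 3 lay among the OIR-CIH libraries and the other OIR-Norm libraries lay above them. The log2 fold change was -0.46 with an edgeR adjusted p of 0.247, and -0.64 with an edgeR adjusted p of 0.00935 without OIR-Norm replicate 3, when Junb (-0.51) and Egr1 (-0.73) of this list were called too. Egr2, of the same class, had 0.862 ± 0.196 against 1.72 ± 0.605 CPM (ratio 0.499, 95% interval 0.309 to 0.806, edgeR adjusted p = 0.255). Among other neurotrophic factors the median was 0.09, and Nxnl2, encoding a rod-derived cone viability factor, had 140 ± 7.2 against 113 ± 16.4 CPM (edgeR adjusted p = 0.272). Cntfr, the ciliary neurotrophic factor receptor gene, had 34.4 ± 3.84 against 28.8 ± 2.64 CPM (edgeR adjusted p = 0.318).

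**Figure D4:**
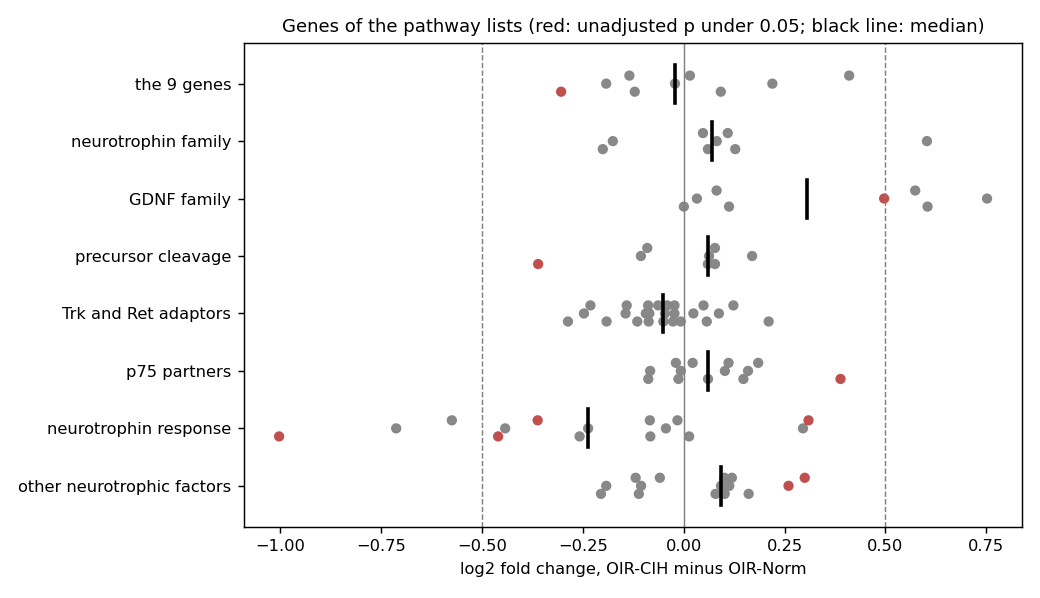
Log2 fold change, OIR-CIH minus OIR-Norm, of each tested gene of the 9 neurotrophin and GDNF genes and of the 7 pathway lists, with 1 point per gene, a bar at each median and dashed lines at ±0.5. List medians run from -0.24 for the neurotrophin response to 0.30 for the GDNF family, and no gene was called.

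The genes whose level followed Ntrk2 most closely over the 6 libraries were named by Pearson's r of log2(CPM + 0.5) among 14799 genes with a mean of at least 1 CPM. They were Tshz2, a zinc finger transcription factor gene (r = 0.996), Chrm1, the gene of a muscarinic acetylcholine receptor (r = 0.991), and Ltbp2, a gene of an extracellular matrix protein (r = 0.987). Their log2 fold changes were -0.13, -0.33 and -0.76, and none was called. In all, 305 genes reached an r of 0.9 or more. With 6 libraries in 2 groups that share scaling and depth, these values describe likeness only.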

How the data were processed

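Whole retinas of OIR-CIH and OIR-Norm mice were sequenced from 250 ng of total RNA with a stranded poly(A) kit. The authors aligned reads with STAR 2.7.9a and deposited raw counts per gene, without normalization. Their methods name Ensembl 105 and their processing notes GRCm38, and the strand setting of the counting is not given in the sources used here. Names, lengths and coordinates came from GENCODE M21 (GRCm38) by gene ID, matching 32158 of 32285 IDs. The authors dropped genes with a total count under 10, ran DESeq and required an absolute log2 fold change over 0.5 at an adjusted p under 0.05.

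The same filter and thresholds were applied here with edgeR 4.0.16 (R 4.3.3): TMM scaling, a quasi-likelihood test of OIR-CIH against OIR-Norm over 20021 genes, Benjamini-Hochberg adjustment, and CPM from the scaled libraries. Intervals are at 95%. Single-gene exact permutation tests are two-sided and cannot go below p = 0.1. The fit was tested on simulated data. Samples were grouped by GEO's labels, and within groups the libraries differed by more than sampling noise. DESeq2 1.42.0, limma 3.58.1, limma-voom, other scaling and filters, a replicate block and leaving out each library were alternatives. Promoter windows are RefSeq's.

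The 9 genes and all lists were chosen with earlier results of these data known. Named were all 9, the 2 genes of lowest p per pathway list, called markers, the 2 most abundant markers of ganglion cells, Müller glia, astrocytes and endothelium, and 3 genes most like the examined gene of lowest p. Some results of the neurotrophin family list are not reported here. Gfra3, Junb, Egr1, Rlbp1, Aqp4 and the antisense genes were named after their values were seen, and Nr2e3 because the authors list it.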

Additional observations from a re-analysis of the deposited data

How the results depend on the processing

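None of the 9 genes was called under any of the alternatives run. Of 125 pairs of a gene and an alternative, 119 kept the direction of the estimate. The exceptions were Bdnf at 0.01 without OIR-CIH replicate 1 and 0.05 without OIR-Norm replicate 2 (range -0.09 to 0.05), Gdnf at -0.02 without OIR-CIH replicate 3 (-0.02 to 0.67), Gfra2 at -0.01 without OIR-CIH replicate 3 (-0.01 to 0.17) and Ret at -0.01 and -0.08 without OIR-CIH replicates 2 and 3 (-0.08 to 0.12). The other ranges with 1 library left out were -0.31 to -0.08 for Ntf3, -0.41 to -0.22 for Ntrk2, -0.24 to -0.07 for Ntrk3, -0.24 to -0.04 for Ngfr and 0.10 to 0.28 for Gfra1. DESeq2 gave Ntrk2 its lowest adjusted p of the 8 alternatives to the test, 0.108, and gave Gdnf none. A stricter count filter left Gdnf out.

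Over all genes, 63 were called (42 lower, 21 higher), 135 by DESeq2 (101 lower, 34 higher), 78 with no minimum fold change, and 58 to 77 under the other settings. With single libraries left out the count was lowest, 29, when OIR-CIH replicate 1 was dropped and highest, 97, when OIR-Norm replicate 3 was (lower 22 to 81, higher 7 to 31). With the replicate number as a block 68 were called (39 lower, 29 higher), 0 of the 9 genes among them. Deviations of same-numbered libraries from their group means had r of 0.104, 0.0989 and -0.181 across genes. Differently numbered pairs had -0.282 to 0.167. No pairing by replicate number is stated, and these values can neither show nor exclude one.

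The list median of the GDNF family was 0.30, and 0.12 with limma on log2(CPM + 0.5) but 0.33 with limma-voom. It was 0.12 with every counted gene, 0.11 with filterByExpr and 0.19 to 0.37 with 1 library left out. Left-out ranges were -0.05 to 0.11 for precursor cleavage, -0.09 to -0.03 for Trk and Ret adaptors, -0.43 to -0.04 for the neurotrophin response and 0.01 to 0.11 for other neurotrophic factors. Calls in the neurotrophin response list went from 0 to 3 without OIR-Norm replicate 3, Fos at -0.64 among them. Of 308 pairs of another named gene and an alternative, 304 kept direction and side of the threshold, and the markers Dkk3 (range -0.12 to 0.06), Kdr (-0.04 to 0.02) and Pecam1 (-0.75 to 0.08) reversed when 1 library was left out. The marker Nefl, with an estimate of 0.00, was counted as kept. Its estimate also changed sign with 1 library left out (-0.09 to 0.07). With the length of the longest coding transcript, levels were 12 for Ntrk2, 10.8 for Ret, 8.41 for Gfra1, 2 for Ntrk3, 1.78 for Bdnf and 0.539 for Ntf3, in CPM per kb. The causes were not tested. Depth limits Ntf3 and Gdnf, with at most 31 and 13 counts per library.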

Other observations

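Müller glia are a known site of Ngfr and of GDNF co-receptors. Of their markers, Rlbp1, encoding a retinaldehyde-binding protein, had 519 ± 32.8 CPM in OIR-CIH against 410 ± 24.7 CPM in OIR-Norm (n = 3, log2 fold change 0.34, edgeR adjusted p = 0.141). Aqp4, a water channel gene, had 76 ± 2.56 against 94.2 ± 4.47 CPM (log2 fold change -0.31, edgeR adjusted p = 0.133). Neither was called, and they differed in direction.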
